A study of Mus musculus with 9 samples.

Results

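The hepatocyte growth factor, EGF family, activin, and follistatin genes described here are Hgf, Met, Egfr, Areg, Hbegf, Inhba, Inhbc, Inhbe, and Fst. They were taken by name from the deposited expression table and make up 9 of its 24341 genes. The livers came from wild-type C57BL/6 mice and were collected 48 hours after treatment. There were 3 mice given the agonist CD40 antibody FGK45 (mice 2, 5, and 9) and 6 control mice (mice 3, 4, 7, 8, 11, and 12), whose labels name PBS. The labels give no sex, age, litter, or batch, and the study's methods state that mice without the usual fall in blood B cells after anti-CD40 were left out of analysis, without saying for which experiments.

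HGF is secreted mainly by nonparenchymal liver cells as an inactive precursor, is activated by serine proteases, and signals to hepatocytes through the receptor tyrosine kinase MET. EGFR is the second major growth factor receptor of hepatocytes, and amphiregulin (Areg) and heparin-binding EGF-like growth factor (Hbegf) are membrane-anchored ligands that are shed to activate it. Activins are dimers of inhibin beta subunits (Inhba, Inhbc, and Inhbe encode the A, C, and E subunits) that can restrain hepatocyte growth, and follistatin (Fst) binds and blocks activins.

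The unit is FPKM (fragments per kilobase, scaled to the mapped fragments of a library). The libraries were read from the 3′ end of transcripts, so FPKM levels of different genes are not compared here. A summed FPKM of a marker list, where given, is weighted toward its genes of high FPKM and does not describe the list as a whole. Each gene was compared between the groups on the log2(FPKM + 0.1) scale with limma. The log2 change is the mean of the anti-CD40 (treated) mice minus that of the control mice on this scale, SE is its standard error, and "called" means a Benjamini-Hochberg adjusted p under 0.05 over the 13807 genes whose mean FPKM reached 0.1. All 9 genes passed this filter, Areg barely and through the treated mice alone (mean FPKM 0.234, against 0.0344 in control mice). Read totals are not in the table, and by the steps between low values the depth of the mice relative to their geometric mean was 0.870 to 1.13. Each library carries its own number in the labels, taken here as a mouse number, and the p-values measure only the spread between these 9 libraries. The 10 hepatocyte markers examined were above the table's floor of 0.01 in each of the 9 livers, with a summed FPKM of 15291 to 30171 in control mice and 9523 to 11308 in anti-CD40 mice.

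Hgf, Egfr, Hbegf, and Inhba rose in the livers of treated mice, and the HGF receptor gene Met fell. Areg, Inhbc, Inhbe, and Fst were not called. Of the 9 genes, 4 were called higher and 1 lower, while 23.5% of all genes tested were called higher, 21.7% lower, and 45.1% in either direction. The same 5 genes were those whose groups did not overlap, as was the case in 42.4% of all genes tested (22.7% with the treated mice higher and 19.6% with them lower). The median log2 change of the 9 genes was 1.04, and that of all genes tested was 0.0056. The shares of all genes called higher and lower are also the background for the counts in the gene lists below.

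**Figure D1:**
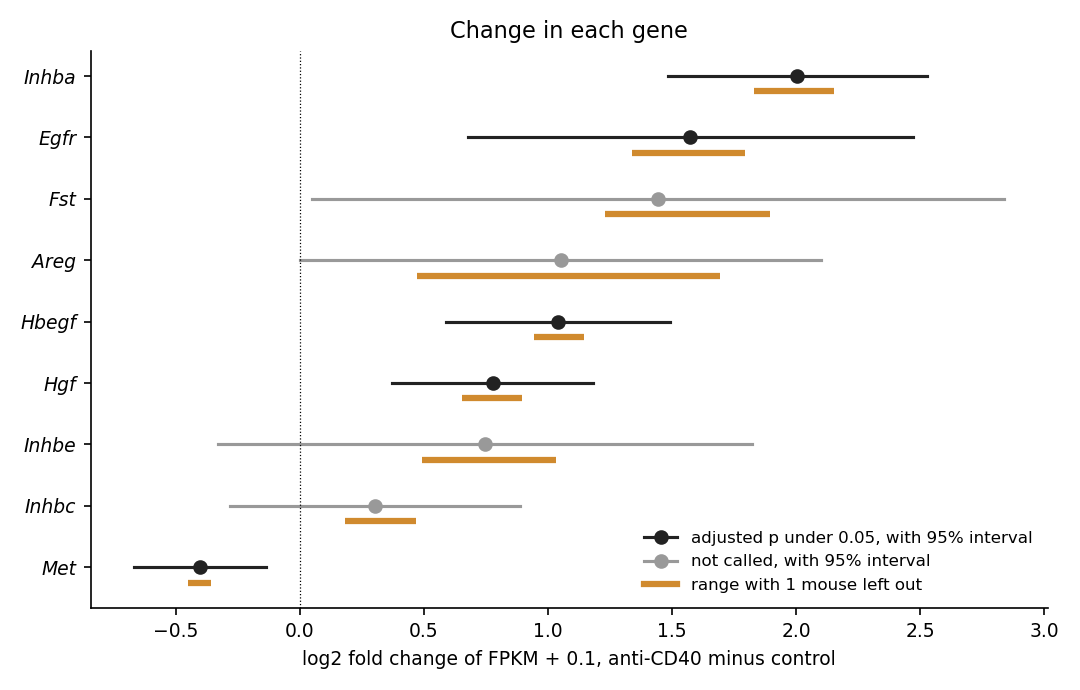
Log2 change of FPKM + 0.1 (anti-CD40 minus control) for each gene, with 95% intervals from limma (black, called; grey, not called) and, in orange, the range of the estimate when each of the 9 mice was left out in turn. Inhba lies highest at 2.01, Met is the only gene below 0, at -0.40, and the intervals of Areg, Inhbc, and Inhbe cross 0.

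The promoters of the called genes with the largest rises, Inhba and Egfr, and of the only gene that fell, Met, are shown with that of Areg, from 250 bases before to 50 bases after the RefSeq transcript start (GRCm38.p6, the assembly of mm10, all on the plus strand). From RefSeq's table, 8 such windows were used, for 7 of the 9 genes and none for Hbegf or Fst. They were searched on both strands for a STAT site (TTCNNNGAA, found in 8.3% of all 32851 promoter windows in the table), a kappaB site (3 Gs, 2 free bases, 3 Ts, and 2 Cs, in 1.63%), an AP-1 site (TGAGTCA, in 5.2%), and a cAMP response element (TGACGTCA, in 1.79%). Capitals mark a match. A single match was found in Met (AP-1) and in Areg (cAMP response element), and the other 6 windows held none of these letters. The windows are chr13:16011601-16011900 for Inhba, chr11:16751953-16752252 for Egfr, chr6:17463707-17464006 for Met, and chr5:91139349-91139648 for Areg. The Inhba window belongs to a transcript start that lies 2624 bases before the start the deposited table gives.
Inhba: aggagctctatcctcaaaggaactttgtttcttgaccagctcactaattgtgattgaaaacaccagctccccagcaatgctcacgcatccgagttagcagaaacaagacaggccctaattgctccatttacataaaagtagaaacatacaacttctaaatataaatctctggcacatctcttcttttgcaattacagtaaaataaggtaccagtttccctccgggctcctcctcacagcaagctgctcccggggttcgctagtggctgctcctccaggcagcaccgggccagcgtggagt
Egfr: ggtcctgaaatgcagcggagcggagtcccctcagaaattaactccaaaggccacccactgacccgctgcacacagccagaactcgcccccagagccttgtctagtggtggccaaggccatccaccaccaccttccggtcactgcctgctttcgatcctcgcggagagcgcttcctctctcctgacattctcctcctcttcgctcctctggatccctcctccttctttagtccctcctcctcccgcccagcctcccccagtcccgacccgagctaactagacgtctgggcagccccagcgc
Met: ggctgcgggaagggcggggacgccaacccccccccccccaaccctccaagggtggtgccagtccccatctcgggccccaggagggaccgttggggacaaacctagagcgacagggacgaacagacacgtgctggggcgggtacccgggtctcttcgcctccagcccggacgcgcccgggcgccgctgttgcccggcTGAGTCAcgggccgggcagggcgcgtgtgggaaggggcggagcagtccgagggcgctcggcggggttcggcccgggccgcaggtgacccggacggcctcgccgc
Areg: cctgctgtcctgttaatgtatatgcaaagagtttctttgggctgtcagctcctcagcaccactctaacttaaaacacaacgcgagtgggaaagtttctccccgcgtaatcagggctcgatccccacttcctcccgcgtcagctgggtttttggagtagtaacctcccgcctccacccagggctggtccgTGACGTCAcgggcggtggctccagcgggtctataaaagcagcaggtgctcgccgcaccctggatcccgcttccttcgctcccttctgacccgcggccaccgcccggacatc

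Hgf, the ligand, is on chromosome 5 (mm10, 16553495 to 16619439). It measured 1.87, 2.66, and 2.21 in treated mice 2, 5, and 9, and 1.3, 1.27, 1.54, 1.01, 1.5, and 1.01 FPKM in control mice 3, 4, 7, 8, 11, and 12. Each treated liver was above each control liver. The mean rose to 2.25 ± 0.398 (SD, n = 3) from 1.27 ± 0.231 (SD, n = 6), a log2 change of 0.78 (SE 0.18, limma adjusted p = 0.00558). The fitted fold was 1.71 with a 95% interval from 1.29 to 2.27. The exact permutation p was 0.0238, the smallest that 84 splits of the 9 mice into 3 and 6 allow in a 2-sided test.

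Met encodes the receptor for HGF and lies on chromosome 6 from 17463957 to 17573980. Its FPKM was 5.61, 5.84, and 5.22 in the treated mice (2, 5, and 9) and 8.61, 7.43, 6.23, 7.70, 7.41, and 7.03 in the control mice (3, 4, 7, 8, 11, and 12). The groups did not overlap, and control mouse 7 was the control nearest to the treated mice. The mean fell to 5.56 ± 0.315 (SD, n = 3) from 7.40 ± 0.782 (SD, n = 6), a log2 change of -0.40 (SE 0.12, limma adjusted p = 0.0193, exact permutation p = 0.0238). The call was lost without treated mouse 2 (-0.41, limma adjusted p = 0.0570) or mouse 9 (-0.36, adjusted p = 0.0829). It was also lost when the mice were rescaled to 1 total without Saa1, Saa2, and Saa3, which left a log2 change of -0.04 (adjusted p = 0.799) and moved the median of all genes from 0.0056 to 0.35. These 3 acute phase genes held 25.4% to 25.9% of the summed FPKM of treated mice, against no more than 0.380% in any control. The same rescaling turned 3240 higher and 2990 lower calls over all genes (52.0% higher) into 5597 higher and 1649 lower (77.2% higher).

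Of 14 other genes of HGF activation and MET signaling, 6 rose, 2 fell, and 6 were not called, with a median log2 change of 0.54. Over all genes tested, 23.5% were called higher and 21.7% lower. The largest rises were in the urokinase receptor gene Plaur, the urokinase gene Plau, whose product activates plasminogen and can cleave the HGF precursor, and Spint1, which encodes an inhibitor of HGF-activating proteases. Plaur rose to 4.25 ± 0.428 FPKM (SD, n = 3) from 0.397 ± 0.221 (SD, n = 6), a log2 change of 3.24 (limma adjusted p = 3.42e-05). Plau rose to 4.11 ± 1.35 (SD, n = 3) from 0.614 ± 0.252 (SD, n = 6), and its log2 change was 2.58. Spint1 had a log2 change of 2.34. The other 3 that rose, which the naming rule did not take, were Plat, St14, and Cbl. St14, with a control mean of 0.0787 FPKM, passed the filter only through the treated mice, so its p-value is not evidence of a rise.

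Both genes that fell encode serine proteases made by hepatocytes that cleave the HGF precursor. Hgfac, the HGF activator, was at 18.4, 26.1, and 21.2 FPKM in the treated mice, against 36.1 to 119 with a median of 82.6 in control mice. Its mean fell to 21.9 ± 3.90 (SD, n = 3) from 83.4 ± 31.5 (SD, n = 6), a log2 change of -1.83 (SE 0.33, limma adjusted p = 0.00126). Hpn, which encodes hepsin, fell to 72.1 ± 4.82 (SD, n = 3) from 106 ± 15.2 (SD, n = 6), a log2 change of -0.55 (limma adjusted p = 0.00805), and lost its call with quantile normalization (-0.20) and with the rescaling without the Saa genes (-0.18). Mst1, which encodes the HGF-like ligand of the receptor MST1R, was not called, at 78.3 ± 23.2 (SD, n = 6) in controls and 51.5 ± 3.59 (SD, n = 3) in treated mice (log2 change -0.55, limma adjusted p = 0.0761).

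Stellate cells, sinusoidal endothelial cells, and macrophages are the known sources of Hgf in liver. Of 10 stellate cell markers, 1 rose and 3 fell, led by Colec11 (log2 change -2.92) and Reln (-2.06), and their summed FPKM was 210 to 236 in the treated mice and 274 to 393 in the control mice. Of 10 endothelial markers, 3 rose (Lyve1 most, at 2.08) and 4 fell, including Oit3 at -0.90, with sums of 207 to 223 and 176 to 228. Of 8 Kupffer cell markers, 8 fell, with sums of 57.9 to 68.5 and 334 to 496, the largest falls being in Clec4f (-6.77) and Vsig4 (-6.50). Of 10 monocyte and macrophage markers, 7 rose, led by Ly6c2 (5.61) and Cd14 (4.94), and 1 fell, with sums of 321 to 441 and 48.2 to 83.6. The stellate sum was mostly that of Dcn, which was not called (188 to 213 FPKM in treated mice and 196 to 294 in control mice). Egfl7 was the largest part of the endothelial sum (111 to 117 and 65.6 to 95.2). None of the markers in these lists was at the floor in all mice. Their part in the values of Hgf was not tested, and in bulk liver a change in the number of cells cannot be told apart from a change in the RNA per cell.

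Egfr, on chromosome 11 from 16752203 to 16913907, encodes the EGF receptor, which in liver is found mainly on hepatocytes. Its FPKM was 158, 164, and 160 in treated mice 2, 5, and 9, and 23.9, 75.0, 54.0, 35.3, 61.3, and 116 in control mice 3, 4, 7, 8, 11, and 12. The treated livers lay close together, whereas the control livers were spread widely, with mouse 12 highest and mouse 3 lowest. The mean rose to 160 ± 3.01 (SD, n = 3) from 60.9 ± 32.5 (SD, n = 6), a log2 change of 1.57 (SE 0.40, limma adjusted p = 0.00917, exact permutation p = 0.0238), or a fitted fold of 2.98 with a 95% interval from 1.6 to 5.55. Of 10 hepatocyte markers, 6 fell, Alb (-2.43) and Ttr (-1.96) most, and 2 rose. Control mouse 12, the highest control in Egfr, also had the highest summed FPKM of the hepatocyte markers. In control mice 3, 4, 7, 8, and 11 these sums were 17563, 15291, 18415, 20794, and 23510.5, beside the Egfr values given above. The treated mice had lower sums (9523 to 11308) and higher Egfr than every control. The part of these values in the rise of Egfr was not tested.

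Hbegf, the other EGFR ligand gene, lies on chromosome 18 from 36504927 to 36515805. Its FPKM was 1.29, 1.52, and 1.73 in treated mice 2, 5, and 9, and 0.507, 1.0, 0.689, 0.621, 0.585, and 0.767 in control mice 3, 4, 7, 8, 11, and 12. The steps between low values give 62 to 73 reads in each treated mouse and 21 to 45 in each control mouse, if each value stands for the fewest whole reads possible. Each treated liver was above each control liver, of which mouse 4 was highest. The log2 change was 1.04 (SE 0.20, limma adjusted p = 0.00192, exact permutation p = 0.0238), and the fitted fold was 2.06 with a 95% interval from 1.5 to 2.81.

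Areg, on chromosome 5 from 91139615 to 91148432, was near the limit of detection. It was read 11, 4, and 0 times in treated mice 2, 5, and 9, and 0, 0, 1, 2, 0, and 0 times in control mice 3, 4, 7, 8, 11, and 12. Its FPKM was accordingly 0.500, 0.193, and at the floor of 0.01 in the treated mice, and at most 0.118 in the control mice. In 2 of 3 treated livers the value was above all controls, and in mouse 9 it was at the floor, as in 4 of 6 controls. The log2 change was 1.05 (SE 0.47, limma adjusted p = 0.0956, exact permutation p = 0.190), with a 95% interval from -0.0007 to 2.1. Over the mice left out in turn it ran from 0.47 to 1.69. The highest value, which passed the threshold, came from leaving out mouse 9, the treated mouse with 0 reads, and so rests on the treated mice with 11 and 4 reads. Since Areg passed the filter through the treated mice, its p-values are not evidence of a rise.

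**Figure D2:**
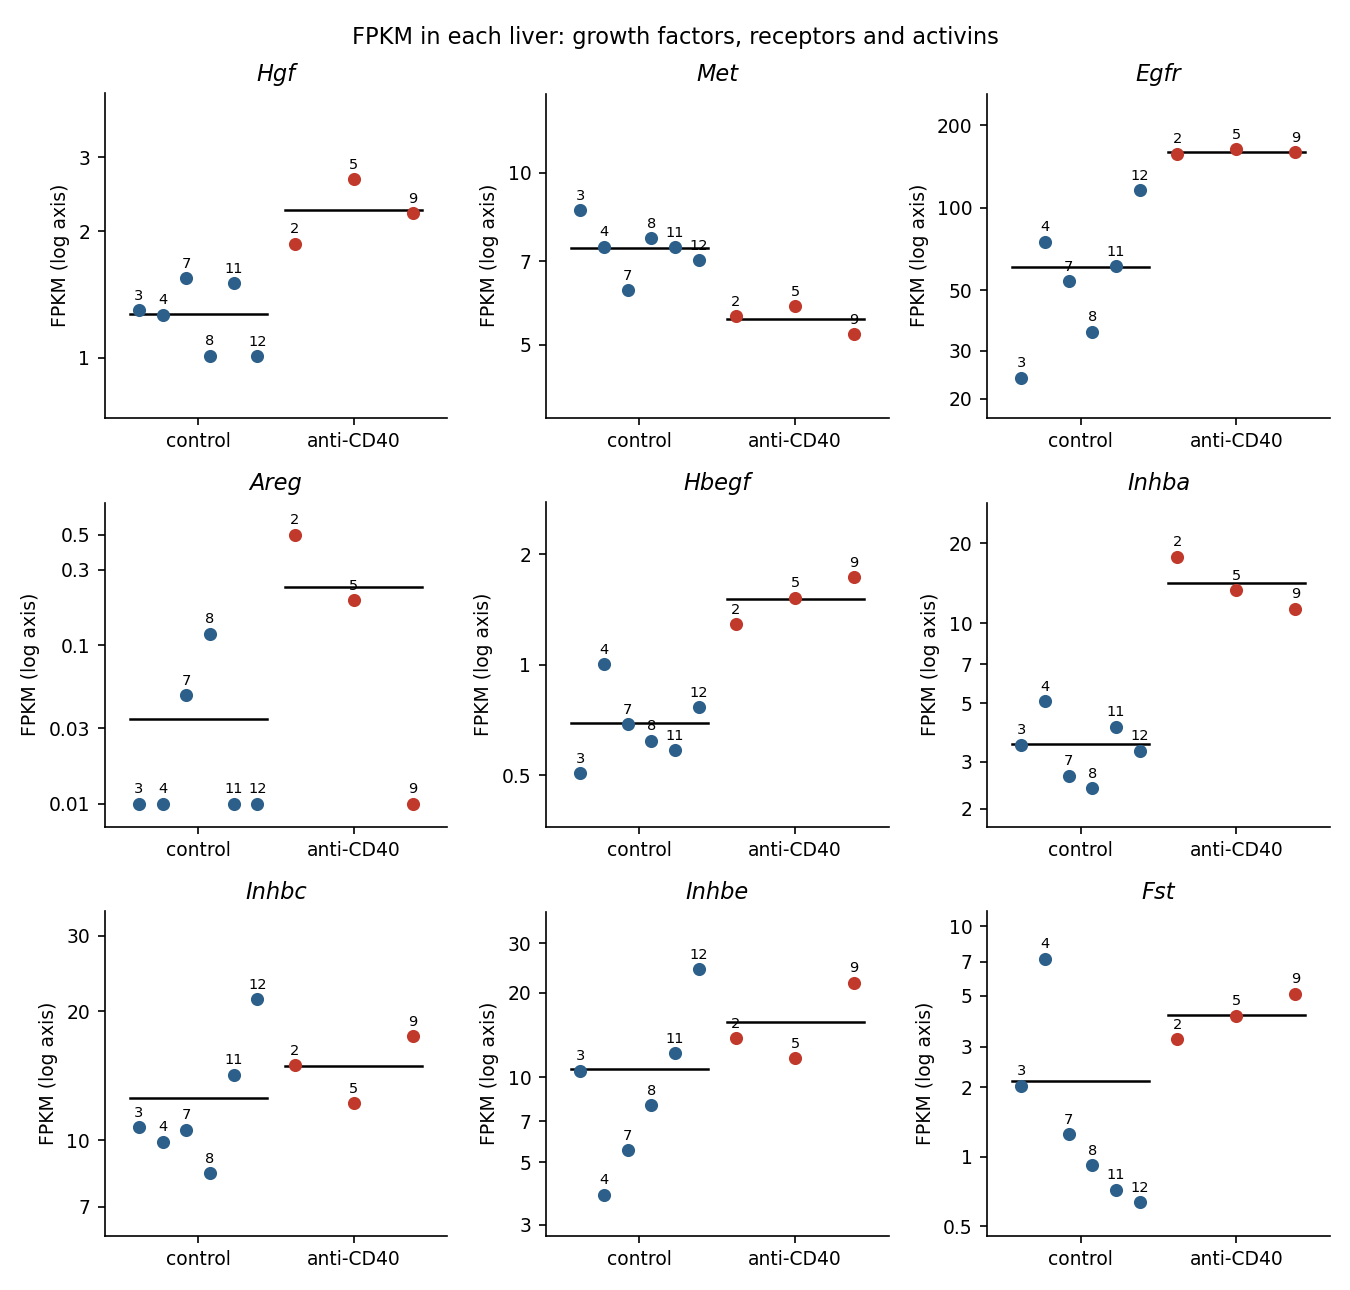
FPKM of the 9 genes in each liver on log axes, with control mice in blue, treated mice in red, mouse numbers above the points, and group means as lines. The groups are apart in Hgf, Met, Egfr, Hbegf, and Inhba and overlap in the other genes, with Areg at the floor of 0.01 in 5 mice and Fst highest in control mouse 4, at 7.24.

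Of 17 other genes for EGF family ligands, receptors, and their shedding, 12 were tested, of which 6 rose, none fell at a limma adjusted p under 0.05 (2 at an unadjusted p under 0.05, Errfi1 and Spry4), and 6 were not called. Their median log2 change was 0.63. Among all genes tested, 23.5% were called higher and 21.7% lower. Ereg, which encodes the EGFR ligand epiregulin, was at 3.10, 1.6, and 1.31 FPKM in treated mice 2, 5, and 9, and at most 0.245 in control mice. It rose to 2.00 ± 0.959 (SD, n = 3) from 0.145 ± 0.0587 (SD, n = 6), a log2 change of 3.04 (limma adjusted p = 1.98e-05). Nrg4, a ligand of ERBB4, had a log2 change of 1.43, from 2.32 ± 0.824 (SD, n = 6) to 6.25 ± 1.5 FPKM (SD, n = 3).

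The sheddase gene Adam17, whose product releases Areg and Hbegf from the cell surface, rose to 34 ± 6.37 FPKM (SD, n = 3) from 19.5 ± 1.66 (SD, n = 6), a log2 change of 0.79 (limma adjusted p = 6.78e-04). Rhbdf2, which encodes iRhom2, a partner that ADAM17 needs to mature, had a log2 change of 1.38. The remaining genes that rose, Btc and Adam10, were not taken by the naming rule. Tgfa, another EGFR ligand, had 8 to 11 reads in each treated mouse and 5 to 16 in each control mouse (log2 change -0.11, limma adjusted p = 0.747, or 0.10 with the rescaling without the Saa genes). Egf was read 0 to 7 times and the receptor gene Erbb3 0 to 8 times in each mouse, and both were under the filter on low values.

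Inhba, which encodes the activin A subunit, rose most among the 9 genes. It lies on chromosome 13 from 16014475 to 16027211, and its FPKM was 17.8, 13.3, and 11.4 in treated mice 2, 5, and 9, and 3.48, 5.09, 2.66, 2.39, 4.08, and 3.31 in control mice 3, 4, 7, 8, 11, and 12. The lowest treated liver was well above the highest control liver, mouse 4. The mean rose to 14.2 ± 3.31 (SD, n = 3) from 3.50 ± 0.982 (SD, n = 6), a log2 change of 2.01 (SE 0.24, limma adjusted p = 7.40e-05, exact permutation p = 0.0238). The fitted fold was 4.01 with a 95% interval from 2.79 to 5.77. Monocytes and macrophages are cells that make activin A. Of their 10 markers, 7 rose and 1 fell, and all 8 Kupffer cell markers fell, as given above. All 9 of the neutrophil markers tested were called higher, S100a9 (7.02) and S100a8 (7.00) most, with sums of 4220 to 5207 FPKM in treated mice and 18.4 to 156 in control mice. Ltf, Mmp8, Cxcr2, and Ngp, with control means of 0.0180, 0.0323, 0.0556, and 0.0902 FPKM, passed the filter only through the treated mice. The p-values of these genes are thus not evidence of a rise. The part of the marker lists in the rise of Inhba was not tested.

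Inhbc and Inhbe, for the activin C and E subunits, are made mainly by hepatocytes and are neighbors on the minus strand of chromosome 10. The table places Inhbe from 127349402 to 127351772 and Inhbc from 127356326 to 127370544. The FPKM of Inhbc was 15.0, 12.2, and 17.5 in treated mice 2, 5, and 9, and 10.7, 9.92, 10.6, 8.38, 14.2, and 21.4 in control mice 3, 4, 7, 8, 11, and 12. That of Inhbe was 13.8, 11.7, and 21.7 in the treated mice and 10.6, 3.84, 5.52, 7.99, 12.2, and 24.3 in the control mice. In both genes control mouse 12 was above every treated mouse, and the groups overlapped.

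The log2 change was 0.30 for Inhbc (95% interval from -0.28 to 0.89, limma adjusted p = 0.376, exact permutation p = 0.357) and 0.75 for Inhbe (95% interval from -0.33 to 1.82, limma adjusted p = 0.236, exact permutation p = 0.238). A rise up to these bounds could not be told from no change with these mice. Without control mouse 12 the log2 change of Inhbe was 1.03 (limma adjusted p = 0.0470), and that of Inhbc stayed uncalled. Over the 6 control mice, Pearson's r between the log2 values of Inhbc and Inhbe was 0.81 (exact permutation p = 0.0639) and Spearman's rho 0.83 (exact permutation p = 0.0583). Neither passed over the 36 pairs of these genes (adjusted p = 0.800 for both), and without the 2 mice farthest from the median of Inhbc (11 and 12) r was -0.05. The 4 mice then left spanned only 8.38 to 10.7 FPKM in Inhbc, and no relation between the genes was shown.

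Fst, the activin antagonist, lies on chromosome 13 from 114452262 to 114458951. Its FPKM was 3.24, 4.09, and 5.09 in treated mice 2, 5, and 9, and 2.03, 7.24, 1.25, 0.921, 0.719, and 0.636 in control mice 3, 4, 7, 8, 11, and 12. Control mouse 4 was above every treated mouse, and the other 5 controls were below all of them. The log2 change was 1.44 (SE 0.63, limma adjusted p = 0.0858, exact permutation p = 0.119), with a 95% interval from 0.05 to 2.84. Without control mouse 4 it was 1.89 (limma adjusted p = 0.00126). Mouse 4 was also the highest control in the summed neutrophil, monocyte and macrophage, stellate cell, and cholangiocyte markers, with 156, 83.6, 393, and 25.4 FPKM. In the monocyte and macrophage sum it barely led, with control mouse 7 at 83.2. The stellate sum of mouse 4 was mostly Dcn (294) and Colec11 (81.0), and not every marker of these lists was highest in mouse 4. The part of these sums in the Fst value of mouse 4 was not tested.

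**Figure D3:**
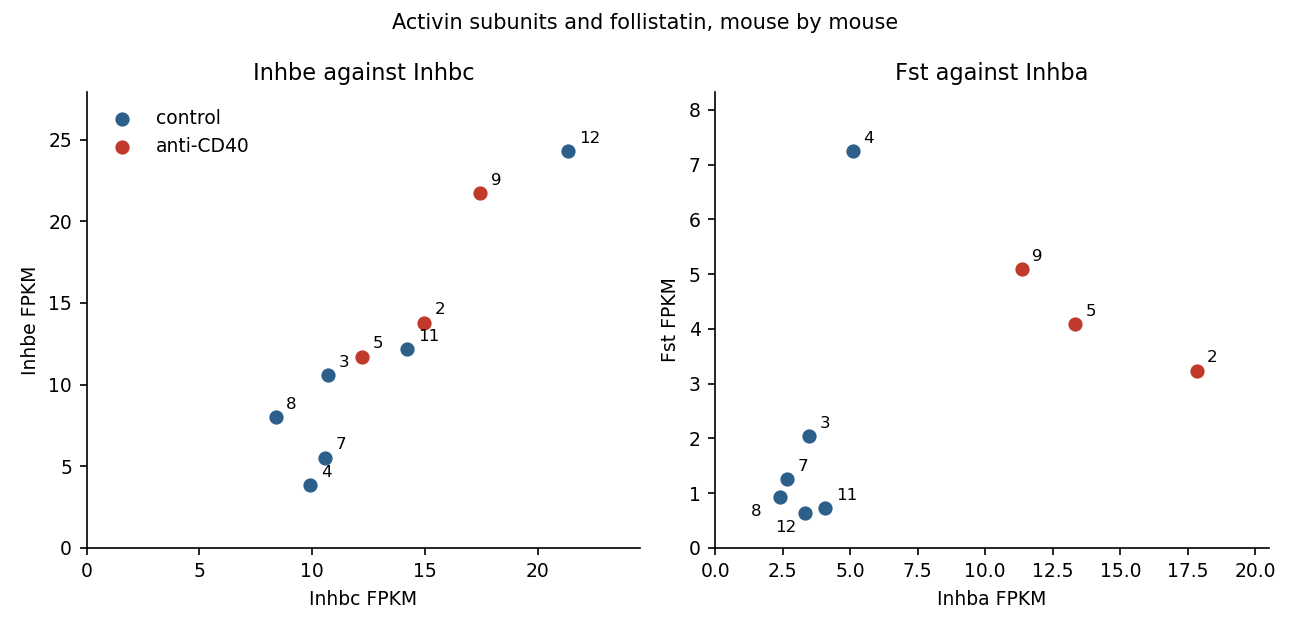
FPKM of Inhbe against Inhbc (left) and of Fst against Inhba (right) in each liver, with control mice in blue, treated mice in red, and mouse numbers beside the points. Control mouse 12 is highest in both Inhbc (21.4) and Inhbe (24.3), and control mouse 4 is the highest control in both Fst (7.24) and Inhba (5.09).

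Of 18 other genes of the activin and follistatin pathway, 14 were tested. Over the whole table, 23.5% of genes tested were called higher and 21.7% lower. Of the 14, 3 rose, a share near that of all genes. None fell at a limma adjusted p under 0.05 (0 also at an unadjusted p under 0.05), and 11 were not called, with a median log2 change of -0.05. Those that rose were Fstl3, which encodes a second activin-binding protein, Fstl1, for a secreted protein with a follistatin-like domain, and Inhbb, for the activin B subunit. Fstl3 rose to 1.24 ± 0.448 FPKM (SD, n = 3) from 0.187 ± 0.181 (SD, n = 6), a log2 change of 2.40 (limma adjusted p = 0.00236). Fstl1 rose to 13.8 ± 0.606 (SD, n = 3) from 4.19 ± 1.45 (SD, n = 6), and its log2 change was 1.77.

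Inhbb was read 44 to 59 times in each treated mouse and 7 to 34 times in each control mouse. Its log2 change of 1.08 was barely called (limma adjusted p = 0.0485), and it lost the call under 9 of 18 alternatives, among them leaving out any 1 treated mouse (adjusted p of 0.0808, 0.142, and 0.126 without mice 2, 5, and 9). The receptor genes were not called: Acvr2a, a type II activin receptor, had a log2 change of -0.10 (limma adjusted p = 0.703), and Acvr1b, a type I receptor, of 0.13 (adjusted p = 0.774), and neither kept its sign under every scaling. Acvr1c, a further type I receptor gene named after its values were seen, was under the filter and had 3 to 25 reads in each control mouse and 0 reads in each treated mouse (exact permutation p = 0.0238, unadjusted).

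**Figure D4:**
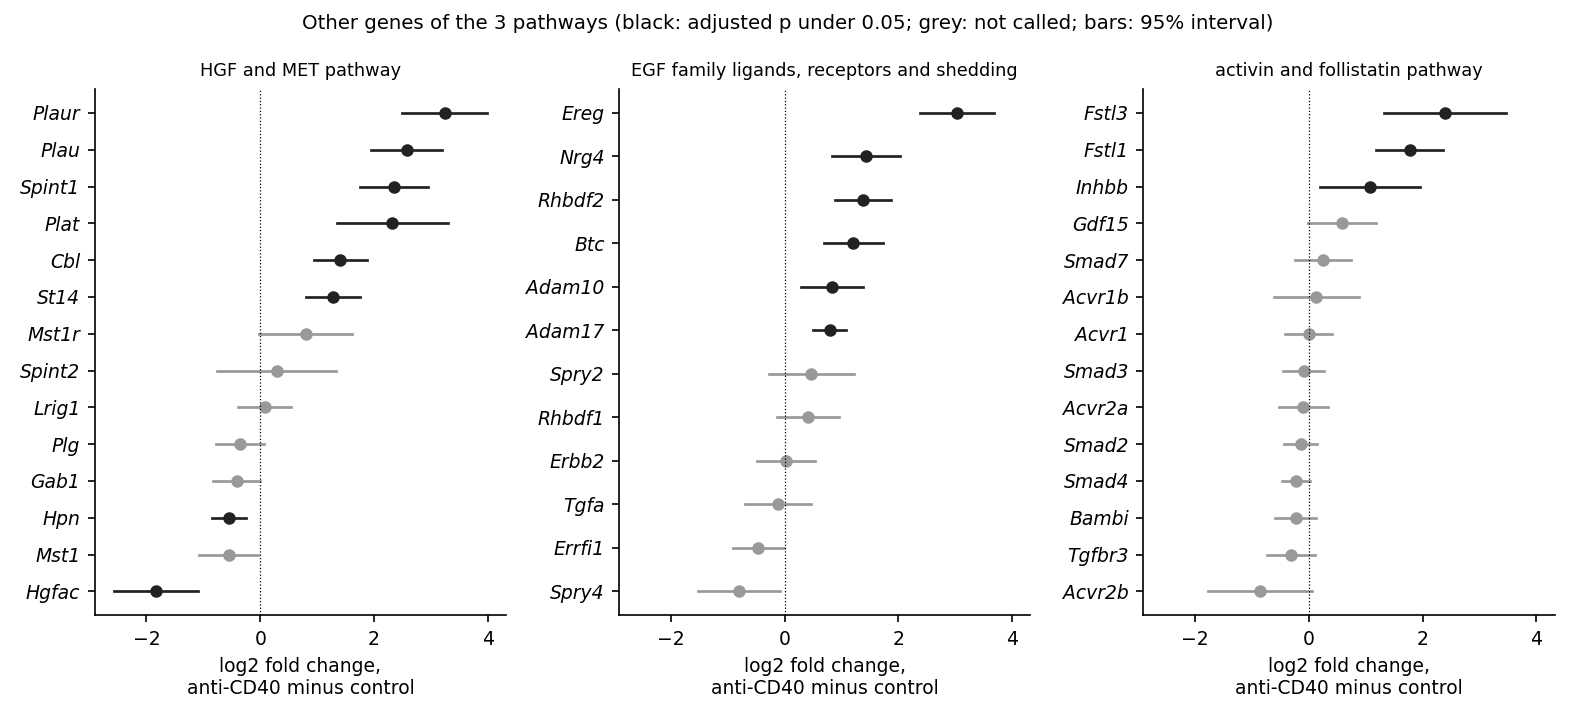
Log2 change (anti-CD40 minus control) with 95% intervals from limma for the tested genes of the 3 pathway lists, with called genes in black and others in grey. The largest rise of each list is in Plaur (3.24), Ereg (3.04), and Fstl3 (2.40), and Hgfac (-1.83) lies lowest of all genes shown.

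Cell division genes, a common readout of growth factor action in liver, were counted beside these genes. Of 17 such genes, 16 rose and none fell at a limma adjusted p under 0.05 (0 also at an unadjusted p under 0.05), with a median log2 change of 2.70. Of all genes tested, 23.5% were called higher. Ccnd1 was not called (-0.02, limma adjusted p = 0.965), at 34.1 to 39.2 FPKM in treated mice and 20.3 to 57.8 in control mice. Mki67 and Bub1, with control means of 0.0626 and 0.0259 FPKM, passed the filter only through the treated mice, so their p-values are not evidence of a rise. Top2a (3.89) and Plk1 (3.41) had the largest changes. Which cells carried these transcripts cannot be read from bulk liver, and their link to the growth factor genes was not tested.

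Of 7 cholangiocyte markers tested, 2 rose, Sox9 (3.57) and Spp1 (2.39), and the median log2 change was 0.28. The groups overlapped in the other markers, none of which was called: Krt19 (0.90), Krt7 (0.19), Epcam (0.28), Prom1 (-0.53), and Tspan8 (-0.685), with Cftr under the filter. The summed FPKM, 69.5 to 102 in treated mice and 11.3 to 25.4 in control mice, was mostly that of Sox9 (48.5 to 64.8 in treated mice) and Spp1 (15.6 to 31.8) and does not describe the list as a whole. The summed FPKM of 12 pancreas markers was 1306 in treated mouse 5 and 28.2 and 34.5 in mice 2 and 9, against 71.5 to 196 in control mice. Outside mouse 5 these sums were mostly Cela1, at 27.0 and 29.3 in mice 2 and 9 and 69.3 to 188 in control mice. They do not describe the list as a whole. Cpb1 (4.84) and Cela3b (4.31) had the largest fitted changes, of which only that of Cpb1 was called. Cpb1 and Cela3b, with control means of 0.0791 and 0.0776 FPKM, passed the filter only through the treated mice, so their p-values are not evidence of a rise. Without mouse 5, Hgf, Met, Egfr, Hbegf, and Inhba remained called.

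The genes whose log2 values over the 9 mice were most like those of Egfr were Gadd45g, Rpf2, and Piga, with Pearson's r of 0.98, 0.97, and 0.97. For Hgf they were Gm7694 (0.97), Unc13b (0.97), and Gdf3 (0.95), and for Inhba they were Cxcl5, Lacc1, and Elmo1 (0.99 each). Gdf3 and Cxcl5, with control means of 0.0518 and 0.0990 FPKM, passed the filter only through the treated mice. The r values describe the 9 livers, which share the difference between the groups, and 8.63% of the genes tested reached 0.9 or more with Inhba, 0.782% with Hgf, and 0.681% with Egfr.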

How the data were processed

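RNA from 9 mouse livers was made into QuantSeq 3′ libraries and sequenced on an Illumina NextSeq. STAR alignment to mm10 and FPKM estimation by Cufflinks and Cuffdiff were done by the authors, per the labels and the study's methods. The deposited FPKM table has a floor of 0.01, and the annotation, filter, and scaling between libraries behind it are not given in the sources used here. The 15 genes with a failed estimate were left out. FPKM was tested without further scaling as log2(FPKM + 0.1), with limma 3.58.1 in R 4.3.3 (eBayes with trend, 2-sided) and treatment as the only factor, keeping 13807 genes whose mean FPKM reached 0.1. For single genes, the 84 possible splits gave an exact permutation p. Reads behind low values are the fewest whole numbers, within 0.05 of a read and up to 150, that fit the steps between mice. Python 3.11.15 did the remaining steps, and the test scripts were checked on simulated data.

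The 9 genes, the lists, and the alternatives (pseudocount, filter, scaling, variance model, each mouse left out) were chosen with earlier results of these data known. Named are the 9 genes, the 3 largest called rises and falls of each pathway list with 11 set genes, the 2 largest changes of each other list, and the 3 genes most like Hgf, Egfr, and Inhba. Other genes named were picked after their values were seen. The study's patient and other mouse data were not analysed here.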

Additional observations from a re-analysis of the deposited data

Results flagged for a closer look

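In 45 genes named here, the gap between the highest or lowest of the 6 control mice and the next mouse was taken as a share of the control range. It was above Dixon's 95% critical value in 7. For normally distributed values chance gives about 2.25, but the gap was taken on FPKM without logs, so that count is only a rough guide. Among the 9 genes the report is about, those above it were Fst, with control mouse 4 highest (0.788), and Areg, with control mouse 8 highest (0.643). For Areg the critical value and the chance count do not apply, since 4 of the 6 controls were tied at the floor and mice 7 and 8 had 1 and 2 reads. Control mouse 4 was also highest in Plau (0.747), Colec11 (0.842), Lyve1 (0.642), S100a9 (0.686), and Cela3b (0.626). Cela3b was at the floor in 2 of the 6 controls and reached only 0.210 FPKM in mouse 4, so the critical value does not apply to it either. With mouse 4 highest in 6 of the 7 genes, these cannot be read as separate events beside the chance count. The cause was not tested.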

How the results depend on the processing

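Hgf, Egfr, Hbegf, and Inhba kept their direction and their call under every alternative that could be run, with log2 fold changes from 0.51 to 1.12, 1.34 to 1.98, 0.57 to 1.38, and 1.76 to 2.37 and adjusted p of at most 0.0357, 0.0421, 0.0137, and 8.85e-04. Areg and Hbegf, at a mean FPKM under 1, have no value with the filter at 1. Met kept its direction, but its call was lost with the mice rescaled to 1 total without the Saa genes (-0.0414, which leaves 0 of the 9 genes called lower), and with each mouse left out its log2 fold change ran from -0.45 to -0.36 and the count of genes called lower from 0 to 1. Fst became called with that rescaling (1.79, adjusted p = 0.0394) and with array weights (1.6, adjusted p = 0.00990). With each mouse left out, Fst ran from 1.23 to 1.89, Areg from 0.47 to 1.69, and Inhbe from 0.49 to 1.03. The rescaling gave 5597 higher and 1649 lower genes over the table.

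Of the lists, the HGF and MET genes called fell from 8 to 5 with a mean FPKM of at least 1, by the fewer genes tested, and those of the activin pathway from 3 to 1 with that filter, while quantile normalization gave 6. Hepatocyte markers called were 5 without a filter in place of 8. Pancreas markers called were 1, and 0 with a pseudocount of 1 or without a filter, 3 with a pseudocount of 0.01 or with the rescaling, and 1 to 7 with each mouse left out (7 without anti-CD40 mouse 2 and 3 without mouse 5). Uncalled genes that changed sign were Tgfa (0.10) and Acvr2a (0.23) with the rescaling, and Acvr1b with quantile normalization (-0.26), with array weights (-0.0399), without anti-CD40 mouse 2 (-0.0064), and without control mouse 12 (-0.016, against up to 0.393 over the mice left out). Where no cause is named, the cause was not tested. No paired analysis was possible because the groups share no mouse number. Depth limits Areg, Egf, Erbb3, and Acvr1c, which rest on few reads.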
